A study of Mus musculus with 4 samples.

Results

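Of 120423 accessible regions found in cultured mouse bone marrow cells, 6592 were called in both libraries of myeloid progenitors, in neither library of monocytes, and away from gene ends. They are called CMP/GMP-only distal regions here. The cells were labelled common myeloid progenitors and granulocyte-monocyte progenitors (CMP/GMP) or monocytes, and each was taken from wild-type (WT) and from Cxcr3-/- C57BL/6J mice, which gave 4 libraries with 1 per group. Cxcr3 encodes a chemokine receptor. Omni-ATAC-seq, an assay in which a transposase cuts and tags open chromatin, produced 1 list of accessible intervals per library, on the mm10 build. The sample labels carry hepatocellular carcinoma as disease state for all 4 groups, while the series' design text places the assayed cells in culture. The knockout allele, the age and number of the mice, and the culture conditions are not stated in the labels or the design text. With 1 library per group there is no replicate, so values are given without a test, and all intervals printed are exact 95% intervals that cover counting error only.

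Accessible regions away from gene ends are where most enhancers lie, the elements at which transcription factors bind to set a gene's activity in a given cell type. In blood formation, progenitors use enhancers bound by factors such as RUNX1, ERG, MYB, GATA2 and C/EBP-alpha. As progenitors mature into monocytes, many of these close while enhancers bound by PU.1, C/EBP-beta, AP-1 and IRF factors open. Regions listed in progenitors and not in monocytes are therefore a usual starting point for a catalogue of progenitor enhancers.

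The rule was applied to intervals merged when they shared a base, on chromosomes 1 to 19 and X. A region had to lie over 2.5 kb from every end of a protein-coding gene and inside, or within 100 kb of, a gene body. The regions were thus chosen by the authors' calls in the 4 libraries, so the absence of monocyte calls is a property of the rule and not a finding. Among 8764 regions with this pattern of calls, 1346 were left out as too near a gene end and 826 as too far from a gene. The nearest of the 6592 to a gene end lay 2506 bp away and the farthest left out lay 2495 bp away. The farthest from a gene body was 99874 bp away, against 100001 bp for the nearest left out. The weakest calls that brought a region in had a −log10 q of 1.37 in WT and 1.58 in Cxcr3-/- CMP/GMP.

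The regions made up 16.9% (16.5 to 17.2) of the 39108 distal regions called in both CMP/GMP libraries. Another 27586 were called in all 4 libraries and are called constitutive distal regions. A further 4189 had a call in WT monocytes alone and 741 in Cxcr3-/- monocytes alone, at median pileups of only 11 and 10 tags, so the border between called and not called runs through weak regions. In the mirror direction, 13775 distal regions were called in both monocyte libraries and in no CMP/GMP library, 29.4% of the 46886 called in both monocyte libraries. In bulk samples such as these, fewer cells in which a region is open and less opening per cell cannot be told apart.

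The libraries differed in depth, which the length of a list does not measure. For WT, the lists held 69521 intervals in CMP/GMP and 98257 in monocytes, and for Cxcr3-/- they held 80171 and 78244. The most frequent background of an interval, recovered from the deposited values, was 1.59 tags (WT) and 2.43 tags (Cxcr3-/-) in CMP/GMP. In monocytes it was 0.956 and 1.08 tags, so the longest list, that of WT monocytes, had the lowest background. Total read numbers are not stated in the labels. The number of tags stacked at each summit, the pileup, was recovered from the deposited values, and its median was 21 to 29 tags per library. The smallest called pileups were 7 tags (WT) and 9 tags (Cxcr3-/-) in CMP/GMP, and 5 and 6 tags in monocytes. Pileups were made comparable with factors taken from 44591 regions called in all 4 libraries, and such values are called scaled. The CMP/GMP pileups were divided by 0.826 (WT) and 1.35 (Cxcr3-/-), and the monocyte pileups by 1.08 and 0.846.

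The targeted gene, Cxcr3, had called intervals at its ends in all 4 libraries. Their pileups were 34 tags (WT) and 84 tags (Cxcr3-/-) in CMP/GMP, and 41 and 23 tags in the monocytes. Scaled, they were 41.2 and 62.0 in CMP/GMP and 38.1 and 27.2 in the monocytes. As the deleted part of the gene is not stated in the labels, this does not check the genotypes. The cell labels were checked at gene ends. The ends of Mpo and Elane, granule enzymes of granulocyte-monocyte progenitors, were called in both CMP/GMP libraries, at 58.1 and 60.5 scaled tags for Mpo in WT and Cxcr3-/- and 30.3 and 41.3 for Elane, and in neither monocyte library. At Kit, the stem cell factor receptor, the scaled pileups of WT and Cxcr3-/- were 65.4 and 59.8 in CMP/GMP against 18.6 and 15.4 in the monocytes. The ends of Cx3cr1, a chemokine receptor of monocytes, ran the other way, at 59.3 and 57.6 in CMP/GMP and 72.6 and 76.8 in monocytes. Ccr2, a receptor of classical monocytes, went against the monocyte label, with 17.0 and 28.8 in CMP/GMP, 12.1 in WT monocytes and no call in Cxcr3-/- monocytes. Cd3e of T cells and Alb of hepatocytes had no call in any library.

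Sequence could be read for the few regions that overlap an annotated transcript start in the RefSeq table of GRCm38.p6 (mm10), which gives 250 bases before to 50 after each start. These are mostly starts of long non-coding RNA (lncRNA) genes or starts that a protein-coding gene has inside its body. They include some of the strongest CMP/GMP-only regions, which is why the next 4 are shown. They were picked after the values were seen, as the region-overlapping part of the start window in the strongest regions that had one. Letters are capitals where any of the 11 motifs listed further on matched, on either strand, and all sequences run 5′ to 3′ along the strand of the annotated transcript. The start window of Gm51657 covers chr9:96896856-96897128 (+ strand) in a region 3792 bp from Pxylp1, which had 76 tags in WT and 145 in Cxcr3-/- CMP/GMP, and its summits lay at bases 51 and 49 of the printed run. It holds a RUNX match at bases 12 to 18, and an ETS match at bases 53 to 59 stands next to the summits. The window of 4930573C15Rik, chr5:146703732-146703886 (+ strand) near Usp12, had 52 and 85 tags. That of Gm52920, chr6:134186464-134186763 (- strand), lies inside Etv6 in a region with 49 and 85 tags, and its ETS matches at bases 243 to 249 and 262 to 268 lie before the WT summit at base 281. That of Gm31450, chr13:15931496-15931731 (+ strand) near Inhba, had 46 and 79 tags.
Gm51657: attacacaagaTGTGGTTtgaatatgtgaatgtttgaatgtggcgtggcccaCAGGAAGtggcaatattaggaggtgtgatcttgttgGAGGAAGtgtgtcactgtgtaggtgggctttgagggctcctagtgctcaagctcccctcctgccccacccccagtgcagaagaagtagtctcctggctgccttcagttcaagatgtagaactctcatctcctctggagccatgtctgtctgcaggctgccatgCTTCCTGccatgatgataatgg
4930573C15Rik: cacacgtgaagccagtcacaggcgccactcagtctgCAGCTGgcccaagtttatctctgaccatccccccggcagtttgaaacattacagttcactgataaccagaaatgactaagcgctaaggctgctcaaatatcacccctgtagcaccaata
Gm52920: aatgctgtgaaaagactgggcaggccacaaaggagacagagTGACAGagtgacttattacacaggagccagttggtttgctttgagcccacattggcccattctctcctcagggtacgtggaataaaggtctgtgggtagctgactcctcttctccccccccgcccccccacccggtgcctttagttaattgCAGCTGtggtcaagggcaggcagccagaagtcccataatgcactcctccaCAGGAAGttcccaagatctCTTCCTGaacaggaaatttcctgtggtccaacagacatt
Gm31450: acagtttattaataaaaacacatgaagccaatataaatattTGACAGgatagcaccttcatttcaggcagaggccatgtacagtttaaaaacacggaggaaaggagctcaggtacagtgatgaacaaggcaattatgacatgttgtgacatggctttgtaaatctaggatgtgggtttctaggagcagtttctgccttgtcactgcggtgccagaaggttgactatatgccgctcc

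The next 4 windows are shown because they hold the C/EBP motif, the one found more often at these starts than in both comparison classes by more than counting error. Gm33582 is at chr14:60176701-60177000 (+ strand) near Nupl1, with 44 tags in WT and 87 in Cxcr3-/- CMP/GMP. Gm35449 is at chr14:30020163-30020462 (- strand) inside Chdh, with 28 and 49. Gm34679 is at chr16:18169265-18169500 (+ strand) near Rtn4r, with 30 and 43. E330033B04Rik is at chr15:96275336-96275525 (- strand) inside Gm38469, with 22 and 45. The C/EBP matches are TTGCCAAA at bases 159 to 166, TTGCAGAA at 187 to 194, TTGCTCAA at 167 to 174 and, on the other strand, TTATGCAA at 28 to 35.
Gm33582: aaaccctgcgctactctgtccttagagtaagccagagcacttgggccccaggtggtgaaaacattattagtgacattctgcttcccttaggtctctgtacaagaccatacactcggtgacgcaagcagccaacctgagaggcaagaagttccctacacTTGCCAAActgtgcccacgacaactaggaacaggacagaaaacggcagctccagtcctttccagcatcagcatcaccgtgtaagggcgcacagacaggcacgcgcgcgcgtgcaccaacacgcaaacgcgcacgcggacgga
Gm35449: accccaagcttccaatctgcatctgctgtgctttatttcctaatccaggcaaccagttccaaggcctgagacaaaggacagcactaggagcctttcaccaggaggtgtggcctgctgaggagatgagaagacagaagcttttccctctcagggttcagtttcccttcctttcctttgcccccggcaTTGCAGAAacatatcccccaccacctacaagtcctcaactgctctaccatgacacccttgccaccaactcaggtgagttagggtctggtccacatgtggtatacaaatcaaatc
Gm34679: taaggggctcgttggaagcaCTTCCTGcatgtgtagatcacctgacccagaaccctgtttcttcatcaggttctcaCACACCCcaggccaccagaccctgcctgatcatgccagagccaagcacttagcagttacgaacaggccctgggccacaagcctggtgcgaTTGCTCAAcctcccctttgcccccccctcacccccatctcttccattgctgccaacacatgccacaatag
E330033B04Rik: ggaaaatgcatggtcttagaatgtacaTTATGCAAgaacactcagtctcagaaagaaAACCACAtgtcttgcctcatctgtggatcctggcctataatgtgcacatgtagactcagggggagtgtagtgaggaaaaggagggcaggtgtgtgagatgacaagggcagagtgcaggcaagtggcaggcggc

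A further 3 windows are shown for the RUNX motif. Gm51477 is at chr7:37439212-37439428 (+ strand) inside Zfp536, with 28 tags in WT and 38 in Cxcr3-/- CMP/GMP. Its RUNX match at bases 112 to 118 lies near the Cxcr3-/- summit at base 104. Lax1, a lymphoid signalling adaptor, has a start at chr1:133690025-133690253 (- strand) with 16 and 25 tags. Gm33799 at chr17:8272468-8272704 (- strand) near Mpc1, with 15 and 23 tags, holds GATA and C/EBP matches at bases 149 to 155 and 158 to 165. These stand beside its Cxcr3-/- summit at base 157, and a RUNX match follows at bases 228 to 234.
Gm51477: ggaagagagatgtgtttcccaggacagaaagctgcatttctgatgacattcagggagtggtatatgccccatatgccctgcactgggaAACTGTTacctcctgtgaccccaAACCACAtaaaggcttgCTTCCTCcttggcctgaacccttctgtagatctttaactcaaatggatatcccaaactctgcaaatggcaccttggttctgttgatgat
Lax1: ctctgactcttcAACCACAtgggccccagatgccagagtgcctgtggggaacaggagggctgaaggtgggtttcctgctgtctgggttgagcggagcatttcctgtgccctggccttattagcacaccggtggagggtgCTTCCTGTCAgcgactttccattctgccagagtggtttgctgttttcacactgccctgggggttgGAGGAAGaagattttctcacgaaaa
Gm33799: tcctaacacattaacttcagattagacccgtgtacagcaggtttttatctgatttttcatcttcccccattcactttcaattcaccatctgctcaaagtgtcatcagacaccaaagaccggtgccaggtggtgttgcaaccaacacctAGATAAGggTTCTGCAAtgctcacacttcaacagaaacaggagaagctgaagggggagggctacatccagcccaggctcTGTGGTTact

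For contrast, 3 windows from the monocyte-only distal regions carry the AP-1 motif, which was rare at CMP/GMP-only starts. They are Dnmt3aos at chr12:3862195-3862494 (- strand), with 80 tags in WT and 68 in Cxcr3-/- monocytes, Gm36199 at chr17:29434614-29434871 (+ strand) near Fgd2, with 67 and 43, and 9930111H07Rik at chr1:85775059-85775320 (+ strand) near Cab39, with 60 and 42. None had a CMP/GMP call. The AP-1 matches lie at bases 52 to 58, 144 to 150 and 193 to 199.
Dnmt3aos: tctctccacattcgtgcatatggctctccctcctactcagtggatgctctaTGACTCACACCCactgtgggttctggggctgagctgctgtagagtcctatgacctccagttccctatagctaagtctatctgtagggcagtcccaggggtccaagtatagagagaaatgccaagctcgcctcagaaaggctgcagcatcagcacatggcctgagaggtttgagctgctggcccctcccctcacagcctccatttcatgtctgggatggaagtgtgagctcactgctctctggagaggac
Gm36199: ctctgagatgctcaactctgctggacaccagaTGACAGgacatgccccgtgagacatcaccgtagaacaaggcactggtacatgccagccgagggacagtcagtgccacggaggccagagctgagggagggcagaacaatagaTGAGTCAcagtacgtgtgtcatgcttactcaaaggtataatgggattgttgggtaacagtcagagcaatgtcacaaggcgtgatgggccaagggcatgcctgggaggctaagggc
9930111H07Rik: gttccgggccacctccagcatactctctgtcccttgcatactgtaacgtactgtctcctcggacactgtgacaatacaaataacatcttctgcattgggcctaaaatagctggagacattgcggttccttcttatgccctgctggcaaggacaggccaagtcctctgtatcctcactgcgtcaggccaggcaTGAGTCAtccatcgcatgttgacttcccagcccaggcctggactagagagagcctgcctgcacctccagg

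The 11 motifs were searched on both strands, with overlapping matches allowed. For ETS factors they were GAGGAAG (the PU.1 type) and CAGGAAG (the ERG and FLI1 type). The runt factors were searched with TGTGGTT (RUNX), C/EBP factors with TTGCNNAA, FOS and JUN with TGANTCA (AP-1), and TAL1 with E proteins by CAGCTG (E-box). AACNGTT stood for MYB, TGACAG for MEIS, GGGTGTG for KLF, AGATAAG for the factors of the GATA family, and a spaced repeat for IRF. On the chromosomes that the table covers, 90 of 6369 CMP/GMP-only regions overlapped an annotated start, 1.41% (1.14 to 1.73), of which 61 were lncRNA and 29 protein-coding starts. Constitutive distal regions overlapped one more often, 1322 of 26669 or 4.96% (4.70 to 5.22), and monocyte-only regions at 1.01% (0.846 to 1.19). The shares that follow are of whole 300-base windows and describe these windows, not the regions at large.

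The C/EBP motif was in 23 of the 90 CMP/GMP-only windows, 25.6% (16.9 to 35.8). It was in 11.5% (9.79 to 13.3) of 1317 constitutive windows, in 5.26% (2.14 to 10.5) of 133 monocyte-only windows and in 10.9% of all 32585 start windows in the table. The CMP/GMP-only share therefore stood above both other classes by more than counting error. The RUNX motif was in 13 of 90, 14.4% (7.92 to 23.4), against 5.32% (4.17 to 6.67) of constitutive, 8.27% (4.2 to 14.3) of monocyte-only and 5.29% of all windows, so the interval overlaps that of the monocyte-only windows.

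AP-1 had the reverse order. It was in 2 of 90 CMP/GMP-only windows, 2.22% (0.270 to 7.80), in 9.26% (7.75 to 11) of constitutive windows and in 28.6% (21.1 to 37.0) of monocyte-only windows, against 7.85% of all. The intervals of the CMP/GMP-only and constitutive windows just overlap, and both lie below that of the monocyte-only windows. The 2 windows were those of Gm33332 near Il20ra, with 9 and 22 tags, and Gm33799, whose match lies outside the printed part of the window. The E-box was also most frequent at monocyte-only starts, at 31.6% (23.8 to 40.2). It was in 17.8% (10.5 to 27.3) of CMP/GMP-only windows, an interval that overlaps the monocyte-only one, and in 17.6% (15.6 to 19.8) of constitutive windows. The IRF motif was in 0 of 90 CMP/GMP-only windows, an interval of 0 to 4.02%, and in 5.26% (2.14 to 10.5) of monocyte-only windows, which overlap.

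The ETS motif was in 27.8% (18.9 to 38.2) of CMP/GMP-only windows, against 18.8% of constitutive, 21.1% of monocyte-only and 13.4% of all windows. Those of PU.1/ETS, GATA, MYB, MEIS and KLF had intervals that overlapped between the 3 classes. GATA was in 5 of the 90 windows, those of BB218582, Zmynd8, Mylk3, Gm33799 and Gm52428. Median GC content was 53.2% at CMP/GMP-only, 56.3% at constitutive and 49.7% at monocyte-only windows, so base composition moved with the classes, and its part in the motif shares was not tested. At lncRNA starts alone, the C/EBP shares in the same order were 27.9%, 13.4% and 5.95%. No match says only that these letters are not in the window, and a match is not a bound site.

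**Figure D1:**
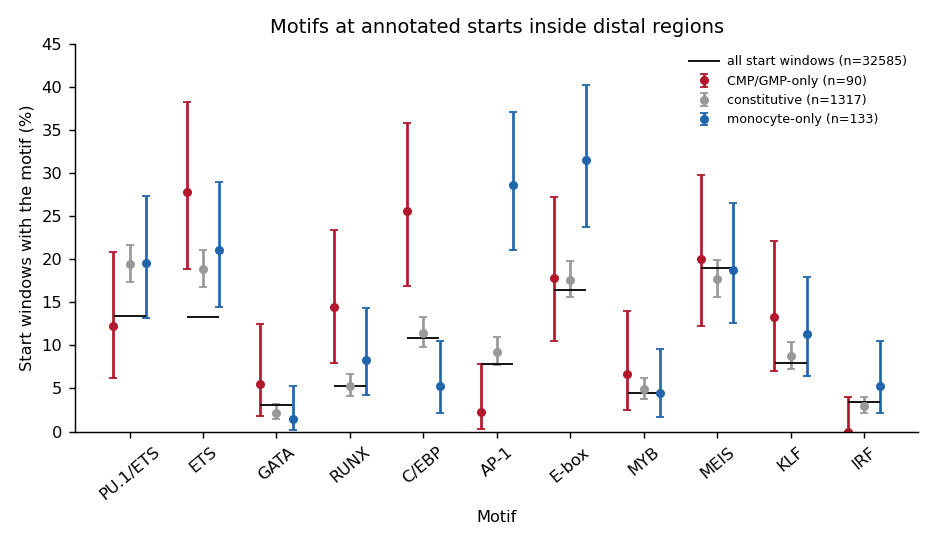
Share of 300-base start windows (y axis, percent) that hold each of 11 motifs (x axis), for windows overlapping CMP/GMP-only (red), constitutive (grey) and monocyte-only (blue) distal regions, with exact 95% intervals as bars and the share of all 32585 windows as black lines. The red C/EBP point at 25.6% stands above the other classes, and the blue AP-1 point at 28.6% stands above the red one at 2.22%.

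Most CMP/GMP-only regions were weak. Their summit pileups ran from 7 to 87 tags in WT CMP/GMP, with a median of 15, and from 9 to 157 in Cxcr3-/- CMP/GMP, with a median of 22. The constitutive regions had medians of 24 and 38 tags in the same libraries. The WT intervals in the CMP/GMP-only regions were also narrower, 175 bp at the median against 246 bp, and the authors' fold over background was 5.24 against 7.34. If such a region had been as accessible in monocytes as in CMP/GMP, the scaling gives a median of 15.9 tags in WT and 12.5 in Cxcr3-/- monocytes. The smallest called pileups there were 5 and 6 tags. Distal CMP/GMP regions called in only 1 monocyte library had medians of 11 (WT) and 10 (Cxcr3-/-). How many monocyte calls were missed at such pileups was not tested. At equal accessibility, at least 20 tags in both monocyte libraries would follow for 1036 of the CMP/GMP-only regions, 15.7%.

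The share of distal CMP/GMP regions without a monocyte call fell as pileup rose. It was 43.0% (40.3 to 45.8) where the lower of the scaled WT and Cxcr3-/- pileups was under 10 tags, 20.5% at 15 to 20 tags, 7.01% at 30 to 40 tags, and 0.313% (0.0853 to 0.799), or 4 of 1278, at 80 tags and above. Among all distal CMP/GMP regions with a lower scaled pileup of at least 20 tags it was 7.84%, 1650 of 21041.

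**Figure D2:**
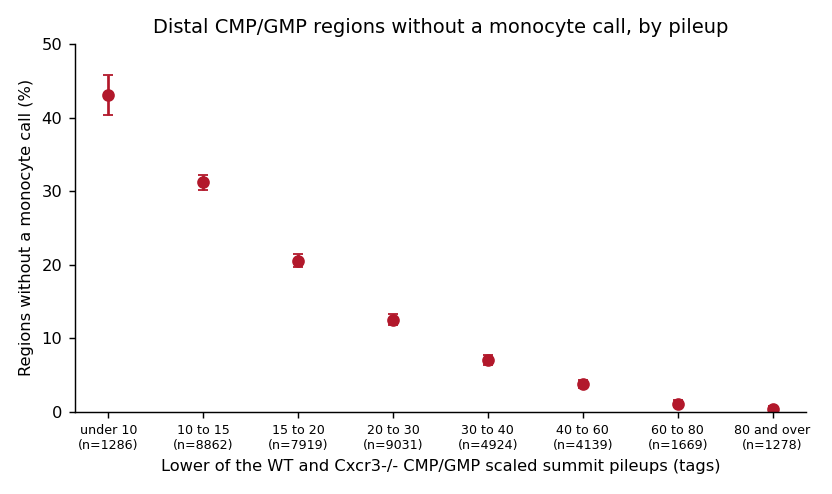
Percent of distal regions called in both CMP/GMP libraries that had no monocyte call (y axis), by the lower of the scaled WT and Cxcr3-/- summit pileups in tags (x axis), with exact 95% intervals as bars. The share falls from 43.0% under 10 tags to 0.313% at 80 tags and above.

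The 10 strongest CMP/GMP-only regions, ranked by the lower scaled pileup, had at least 59 tags in WT and 96 in Cxcr3-/- CMP/GMP. The first, chr18:15208352-15208929, lay 56906 bp from Kctd1, which encodes a BTB-domain protein, and had 87 tags in WT and 157 in Cxcr3-/-, which would correspond to 113 and 89.2 tags in WT and Cxcr3-/- monocytes at equal accessibility. The region near Pxylp1 with the Gm51657 start had 76 and 145 tags, and the one at chr2:127328356-127328890, 7269 bp from Dusp2, a MAP kinase phosphatase, had 71 and 116. At equal accessibility the 10 regions would have had at least 76.2 tags in WT and 59.99 in Cxcr3-/- monocytes, far above the smallest called pileups of 5 and 6.

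Inside Wdr25, chr12:108994631-108995014 had 69 tags in WT and 123 in Cxcr3-/-. The region chr1:38694061-38694617, 63883 bp from Aff3, a nuclear protein gene expressed in lymphoid cells, had 65 and 130. A region 94152 bp from Ntrk2, the receptor of the growth factor BDNF, at chr13:59228122-59228754, had 65 and 105. The remaining 4 lay inside Tbc1d2b (63 and 105 tags), inside Rbms1 (59 and 104), 7626 bp from Ino80d (61 and 96), a subunit of a chromatin remodeller, and inside Sema4b (64 and 96). Their log2 ratios of Cxcr3-/- to WT scaled pileup lay between -0.13 and 0.29, and all 10 counting intervals included 0.

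The regions lay inside genes about as often as the constitutive ones, and at the median farther from genes when outside. Inside a gene body lay 57.8% (56.5 to 58.9) of them, 57.7% (57.1 to 58.3) of constitutive and 63.9% (63.1 to 64.7) of monocyte-only distal regions, so the monocyte-only regions were inside genes more often by over counting error. Those outside genes lay a median of 20343 bp from the nearest gene body, against 18070 bp for constitutive and 21431 bp for monocyte-only regions. By chromosome the CMP/GMP-only share ran from 14.0% on chromosome 11 to 19.2% on chromosome 17. Exons and introns were not separated, since no exon annotation was used here. Of the CMP/GMP-only regions, 2815 (42.7%) lay within 10 kb of a constitutive distal region and 1228 (18.6%) within 10 kb of a monocyte-only one. These shares cannot be set against each other, as there were 27586 constitutive and 13775 monocyte-only distal regions. No such shares were computed for other classes of regions, so they do not show whether the CMP/GMP-only regions lay unusually near either class.

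Each region was assigned to its nearest protein-coding gene, which need not be the gene it acts on. At least 1 region was assigned to 4101 of 21631 genes, 19%, and 2666 of these had exactly 1. Long genes offer more room, and the genes with a region had a median length of 53.1 kb against 17.3 kb for all. Of the 4101 genes, 2294 (55.9%) also had a monocyte-only region, beside 6063 of all 21631 genes. The 2294 are 37.8% of these 6063, beside the 19% of all genes that had a CMP/GMP-only region. The part of gene length in this overlap was not tested.

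Among the 15 genes with the most CMP/GMP-only regions, the share of a gene's distal CMP/GMP regions that lacked a monocyte call ran from 16.4% to 76.9%. Nfia, a nuclear factor I transcription factor used in progenitors, had 11 of 32 and no monocyte-only region. Unc5c, a netrin receptor known from axon guidance, had 10 of 13, all inside the gene, with 1 constitutive and no monocyte-only region. Igf1r, the receptor for insulin-like growth factor 1, had 10 of 30, of which chr7:68133639-68133993 inside the gene was strongest at 52 tags in WT and 97 in Cxcr3-/-. Bach2, a repressor that holds back myeloid genes in lymphoid-primed progenitors, had 10 of 28 and also 10 monocyte-only regions, so its locus held both kinds in equal number.

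Other genes high by this count are known mainly from other tissues. Ntm, a neural adhesion molecule, had 9 of 12, Fam155a 9 of 13, Tcerg1l 8 of 12 and Nrg1, the ligand of ERBB receptors, 9 of 21. Of these, Fam155a and Nrg1 had no monocyte-only region. Gse1 had 10 of 42, Pde4d, a cyclic AMP phosphodiesterase, 10 of 61, Wwox 9 of 40, Maml3, a Notch co-activator, 9 of 33, Rbms1 8 of 22 and Fry 8 of 24. For Pde4d the share, 16.4%, was no higher than that of all genes.

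**Figure D3:**
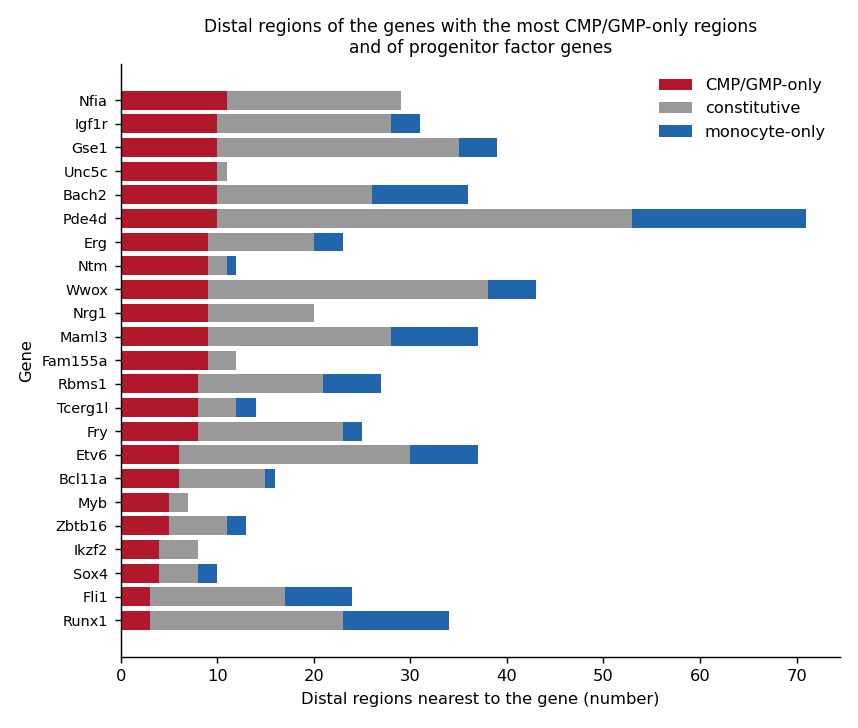
Number of distal regions nearest to each gene (x axis), split into CMP/GMP-only (red), constitutive (grey) and monocyte-only (blue), for the 15 genes with the most CMP/GMP-only regions and 8 progenitor factor genes. Unc5c, Ntm and Myb are mostly red, while Pde4d and Runx1 hold more of the other classes.

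Genes of stem and progenitor transcription factors were the listed group with the most CMP/GMP-only regions. Of 30 listed genes, 22 (73.3%) had at least 1, beside 19% of all genes. Other lists were above 19% too, as endothelial and stromal (55.6%), B cell (43.8%) and monocyte genes (40%), while erythroid and T and NK cell genes had 15%. The 30 genes held 253 distal CMP/GMP regions, against 39108 over 21631 genes, and the part of this in the 73.3% was not tested. Of these 253 regions, 68 lacked a monocyte call, 26.9% (21.5 to 32.8), beside 16.9% over all genes. At a lower scaled pileup of at least 20 tags it was 31 of 164, 18.9% (13.2 to 25.7), beside 7.84% over all genes. Their monocyte-only share, 76 of 279 or 27.2% (22.1 to 32.9), was near the 29.4% of all genes, so these loci did not differ in the monocyte direction by more than counting error.

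Erg, an ETS factor that maintains stem and progenitor cells, led the group with 9 of 21 regions, 6 of them inside the gene. In WT CMP/GMP their pileups were 19, 25, 25, 17, 17, 42, 29, 13 and 32 tags in order along chromosome 16, and in Cxcr3-/- CMP/GMP 43, 41, 39, 32, 24, 74, 41, 23 and 53. The strongest, chr16:95439083-95439503, lay inside the gene, 79.9 kb from its nearer end. The same region was strongest, and the same one weakest, in both genotypes.

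Myb, needed for the proliferation of progenitors, had 5 of 9 and no monocyte-only region. Its regions had 13, 18, 34, 17 and 17 tags in WT and 31, 40, 59, 29 and 29 in Cxcr3-/- CMP/GMP, and 4 lay inside the gene, with chr10:21146271-21146985 the strongest. The remaining one lay 63.4 kb away. Bcl11a, a zinc finger factor of lymphoid and dendritic lineages and of globin switching, had 6 regions, 5 of them inside the gene and within 23.3 kb at chr11:24121228-24144557. Etv6, an ETS repressor required by adult stem cells, had 6 beside 24 constitutive and 7 monocyte-only regions, and the strongest held the Gm52920 start shown above. Zbtb16, which encodes the PLZF factor, had 5, with 36 and 72 tags in the strongest, chr9:48814556-48815133.

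Runx1, the founding factor of definitive blood formation, had only 3 regions, beside 20 constitutive and 11 monocyte-only ones, and the strongest had 24 tags in WT and 55 in Cxcr3-/-. Fli1, an ETS factor close to Erg, had 3, all inside the gene, with 16 to 23 and 37 to 39 tags. Gata2 had 2 of 5, at 27.4 kb and 11.8 kb from the gene, with 27 and 65 tags in the first and 10 and 17 in the second. Gfi1b had 1 distal CMP/GMP region, a CMP/GMP-only one inside the gene at chr2:28618531-28619215 with 23 and 43 tags. Factors of this list thus ranged from loci mostly of CMP/GMP-only regions, as at Myb, to loci where they were few, as at Runx1.

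**Figure D4:**
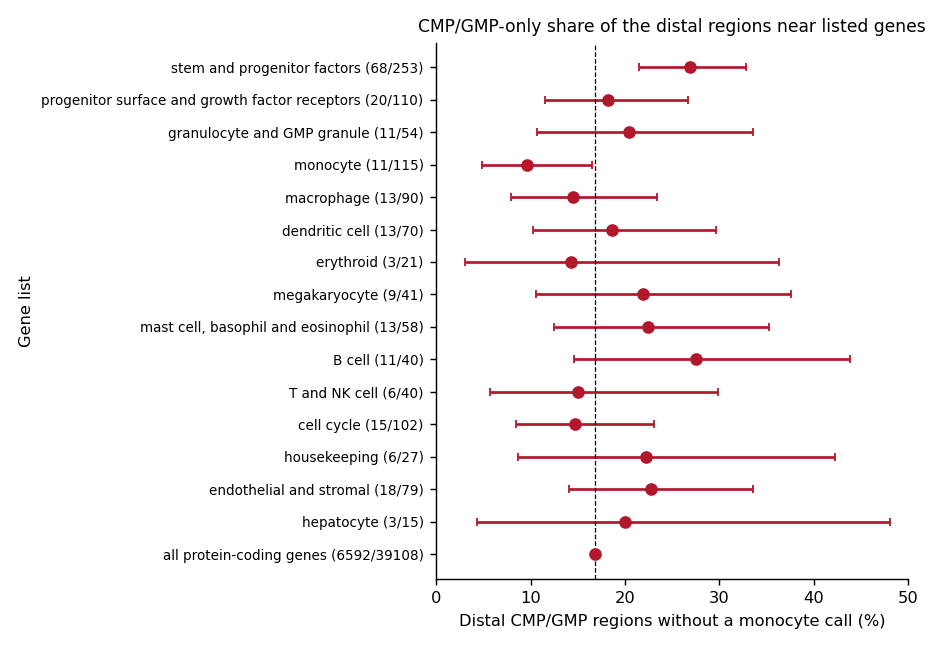
Percent of the distal CMP/GMP regions near the genes of each list that lacked a monocyte call (x axis), with exact 95% intervals as bars and the number of regions in brackets. The dashed line is the 16.9% of all genes, above which the interval of the stem and progenitor factors lies and below which that of the monocyte genes lies.

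Genes of progenitor surface molecules and growth factor receptors had a share of 18.2% (11.5 to 26.7), 20 of 110, near that of all genes, and 7 of 25 genes had a region. Igf1r held 10 of the 20. Flt3, the receptor tyrosine kinase of early progenitors, had 3, all inside the gene, with 25, 13 and 15 tags in WT and 60, 23 and 28 in Cxcr3-/- CMP/GMP. Kit had 2, at chr5:75615706-75615990 inside the gene with 12 and 33 tags and 14.5 kb outside it with 26 and 36. Adgrg1, an adhesion receptor of stem cells, had 2, and Cd34, a surface sialomucin of progenitors, had 1 weak region of 10 and 15 tags.

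Granulocyte and granule genes had 11 of 54, 20.4% (10.6 to 33.5), from 7 of 28 genes, and the interval covers the share of all genes. At a lower scaled pileup of at least 20 tags the share was 7 of 33, 21.2% (8.98 to 38.9), above the 7.84% of all genes. Cebpe, the C/EBP factor of granulocyte maturation, had 2 distal CMP/GMP regions and both were CMP/GMP-only. They lay 4.05 kb and 3.43 kb from the gene, with 37 and 69 tags at chr14:54705706-54706310 and 21 and 52 tags at chr14:54706524-54706938. Cxcr2, the chemokine receptor of neutrophils, had likewise only 2, with 18 and 37 tags and 17 and 21 tags. Neither gene had a constitutive or monocyte-only distal region. Gfi1, a repressor that directs granulocyte fate, had 2 of 4, and S100a9, a neutrophil alarmin, 2 of 4. Cebpa, Ctsg and Retnlg had 1 each.

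Monocyte genes had the lowest share of any list with over 50 distal CMP/GMP regions, 11 of 115 or 9.57% (4.87 to 16.5), beside 16.9% over all genes. At a lower scaled pileup of at least 20 tags it was 4 of 78, 5.13% (1.41 to 12.6), an interval that covers the 7.84% of all genes. Zeb2, a factor of monocyte and dendritic cell development, had 2 beside 17 monocyte-only regions. Cd14, Plac8, Fn1, Ly6c2, Spi1, Cebpb, Klf4, Vcan and Ms4a4c had 1 each. Macrophage genes had 13 of 90, 14.4%, with 2 each at Gpnmb and Mrc1. Their monocyte-only share was 52 of 136, 38.2% (30.04 to 47.0), above the 29.4% of all genes, and that of monocyte genes was 52 of 165, 31.5%. The strongest region among them lay inside Gpnmb, a lysosomal glycoprotein gene, with 47 and 66 tags.

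Lists of other lineages were counted as well, and the intervals of their shares all covered the 16.9% of all genes. B cell genes had 11 of 40, 27.5% (14.6 to 43.9), with 2 each at Foxo1, Dntt, Blnk and Ebf1. Mast cell, basophil and eosinophil genes had 13 of 58, 22.4%, with 3 inside Cd200r3, of which the strongest had 46 and 91 tags, and 2 inside Hdc, the histamine-forming enzyme. Megakaryocyte genes had 9 of 41, 22%, with 5 at Cd9, and erythroid genes 3 of 21. T and NK cell genes had 6 of 40, 15%, of which 3 were at Lef1. The part that other cell types in the cultures had in these regions was not tested.

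Lists not tied to the progenitor state did not stand apart from all genes by more than counting error. Endothelial and stromal genes had 18 of 79, 22.8%, with 6 at Thy1, housekeeping genes 6 of 27, 22.2%, and hepatocyte genes 3 of 15. Cell cycle genes had 15 of 102, 14.7%, with 5 at Cdk6, a kinase that drives G1 progression, and at a lower scaled pileup of at least 20 tags 2 of 59, 3.39%. Over regions of any pileup, the intervals of all lists but the stem and progenitor factors and the monocyte genes covered the 16.9% of all genes. At 20 tags and above, those of all lists but the stem and progenitor factors and the granulocyte genes covered 7.84%. By this measure only the stem and progenitor factors stood apart from all genes at both limits. The measure depends on list size, as B cell genes had higher shares at both limits. These were 11 of 40, 27.5%, and 4 of 17, 23.5% (6.81 to 49.9), beside 26.9% and 18.9% for the stem and progenitor factors.

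The pileups of the CMP/GMP-only regions in the 2 genotypes are given as a description, since the rule asked for a call in both and so can leave out regions that differ. Left out were 2590 distal regions called in WT CMP/GMP alone and 6717 called in Cxcr3-/- CMP/GMP alone. Over all 6592 regions the median log2 ratio of Cxcr3-/- to WT scaled pileup was -0.17, 2255 regions were above 0, and 10 were over 2-fold higher in Cxcr3-/- against 133 in WT. Over all 59993 regions called in both CMP/GMP libraries, at any position, the median was -0.04 and 27283 were above 0. Of these, 91 were over 2-fold higher in Cxcr3-/- against 630 in WT, so a lean toward WT was present there too. In the 930 CMP/GMP-only regions whose unscaled pileup averaged 30 tags or more over the 2 libraries, the median was 0.03 and 496 were above 0. This limit on unscaled tags gives the deeper Cxcr3-/- library more weight and so favours regions that are high in it. The change of the median from -0.17 to 0.03 can therefore not be assigned to the weak regions. Of the 930, none was over 2-fold higher in Cxcr3-/-, beside 0.122% of all 29454 CMP/GMP regions of that pileup, and 1 was over 2-fold higher in WT, beside 0.153%. The SD of their ratios was 0.34, and counting error of a single region was near 0.35. As both calls were required, these values do not show whether the genotypes differ.

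The 1 region past 2-fold among the 930, chr13:105147865-105148306 inside Rnf180, a ubiquitin ligase gene, had 46 WT tags and 37 in the deeper Cxcr3-/- library, a log2 ratio of -1.03 (-1.69 to -0.37). Next toward WT came regions inside Msh4 (-0.99), Camta1 (-0.90), Hgf (-0.89) and Zfp384 (-0.87). Toward Cxcr3-/- the largest ratios were near Haao, with 15 WT and 47 Cxcr3-/- tags (0.93, 0.07 to 1.88), inside Tango6 (0.93) and near Mesd, with 19 and 59 tags (0.92, 0.15 to 1.75). A region 26.4 kb from Ccl2, a monocyte-attracting chemokine, had 15 and 46 tags (0.90, 0.04 to 1.85), and one near Sun2 had 0.87. These 10 are the extremes of 930 and have no replicate. The 930 were chosen by a limit on unscaled tags, which favours regions high in the deeper Cxcr3-/- library. The regions at Haao, Tango6, Ccl2 and Sun2, with 15 WT tags each, met that limit only through their Cxcr3-/- tags. Their ratios are therefore partly set by the choice of regions.

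**Figure D5:**
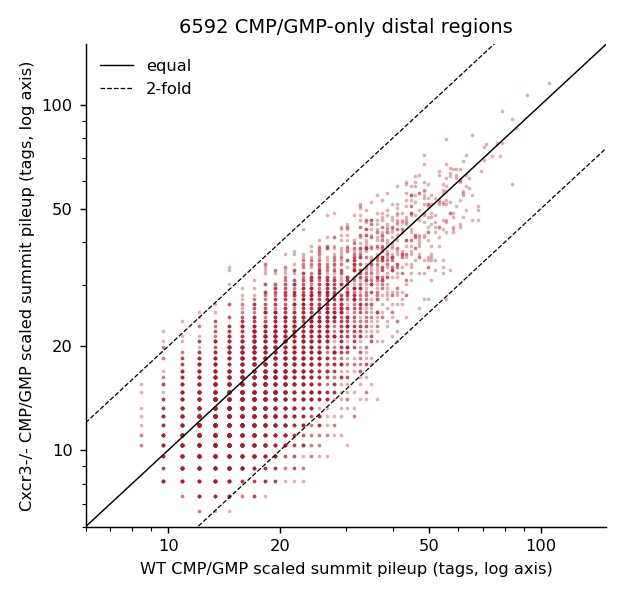
Scaled summit pileup in tags of each of the 6592 CMP/GMP-only distal regions in WT CMP/GMP (x axis, log scale) and Cxcr3-/- CMP/GMP (y axis, log scale), 1 library each, with the line of equality and dashed lines at 2-fold. More points lie below the line of equality than above it, where 2255 lie, and they spread less at high pileups, where 1 of 930 regions passes 2-fold.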

How the data were processed

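The deposited files list accessible intervals of 1 Omni-ATAC-seq library per group. Per the submitters' processing notes, Trim Galore, Bowtie2, SAMtools and the mm10 build were used, while no source used here names the peak caller. Per the labels' protocols the libraries were sequenced in duplicate, and whether these were pooled is not stated. The deposited fold is the ratio of summit pileup to background, computed by the authors' caller for each interval. The −log10 p and −log10 q values were likewise computed by the authors' caller. The score deposited by the authors is the whole part of 10 times −log10 q, as read from the values, and was not used.

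Under a Poisson background with 1 tag added to each side of the ratio, fold and −log10 p give the summit pileup. It came out whole within 0.001 except for 2 (WT) and 59 (Cxcr3-/-) CMP/GMP intervals and 3 (WT) and 2 (Cxcr3-/-) monocyte intervals, and it was whole for every interval of the CMP/GMP-only regions. The recovery was tested on simulated data. Intervals that shared a base were merged, with the highest pileup per library. Shares carry Clopper-Pearson intervals and log2 ratios exact conditional binomial intervals, both at 95%. Ratios were described where unscaled pileups averaged 30 tags or more. Gene positions came from a RefSeq table of GRCm38.p6, with 21631 protein-coding genes on the chromosomes used. The table of start windows does not cover chromosome 18. All 313 genes of the 15 lists were matched. Python 3.11.15, numpy 2.4.6, pandas 2.3.3, scipy 1.17.1 and matplotlib 3.10.9 were used.

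Named are the 15 genes nearest to most regions, the 10 regions of highest lower scaled pileup, up to 4 genes per list and the 5 regions per direction with the largest ratio. Additional list genes, and the genes of the Erg, Myb, Flt3 and similar loci given in full, were picked with their values in view. The regions and lists were chosen with earlier results of these data known. A motif search around summits and an exon and intron split had been planned and were not made, as no genome sequence was used here. The search at annotated starts replaced it and was chosen after the data were seen, as were the printed sequences.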

Additional observations from a re-analysis of the deposited data

How the results depend on the processing

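The share of distal CMP/GMP regions without a monocyte call, 16.9%, was 23.8% with lists of equal length, 19.1% with −log10 q of at least 5 in all lists, 13.3% with that limit in the CMP/GMP lists alone, and 15.2% with no monocyte interval within 500 bp. It was 6.15% where at least 20 tags would be expected in both monocyte libraries, 23.0% in the WT libraries alone and 37.3% in the Cxcr3-/- libraries alone. The last pair compares a single library with a single library. The number of regions was 4354 with the limit in the CMP/GMP lists, 1036 with 20 expected tags, 10039 in WT alone and 19707 in Cxcr3-/- alone, and between 5719 and 8789 under the other 7 settings. The share inside gene bodies was 63.0% within 50 kb of a gene, where fewer regions outside genes can enter, and 56.2% with 20 expected tags. Listed stem and progenitor factors with a region numbered 14 with 20 expected tags and 20 to 25 otherwise. The median log2 ratio ran from -0.04 to 0.14 over 12 settings, changing sign, and regions over 2-fold apart between genotypes from 0 to 29, the last where pileups averaged 20 tags or more. Without a pileup limit the median was -0.17, with 10 regions toward Cxcr3-/- and 133 toward WT. Over all 59993 regions called in both CMP/GMP libraries it was -0.04, with 91 and 630. The C/EBP share was 26.1% with 20 expected tags, and 27.9% at lncRNA starts and 26.3% where at least 100 bases of the window were shared, both chosen after seeing the data. AP-1 was then in 0 of 23 windows with 20 expected tags. Except as given, the causes were not tested. The planned 100-base windows and Cxcr3-/- summits were not run, as no genome sequence was used here. No paired analysis was possible because the labels give no replicate numbers and the regions have no monocyte pileup that could be paired with the CMP/GMP one by genotype. At these pileups a missing monocyte call of a weak region is not evidence that it is closed.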

Other observations

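CMP/GMP-only distal regions gathered in places. When regions within 25 kb of each other were joined, 217 clusters of at least 3 regions held 741 of them, 11.2%, while 4313 regions (65.4%) had no other within 25 kb. The largest cluster held 7 regions over 73.4 kb at chr3:10249489-10322893, nearest to Fabp12, a fatty acid binding protein gene, and Impa1, an inositol phosphatase gene. Clusters of 6 lay near Robo2, a Slit receptor gene, at chr16:75291266-75353751, inside Nrg1 at chr8:31929092-32003096, and near Aqp4, a water channel gene, at chr18:15303780-15360795. A total of 19 clusters held at least 5. No comparison with other classes of regions was made for these clusters.

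Distal regions called in a single CMP/GMP library and in no monocyte library were not part of the set. There were 2590 in WT, with a median pileup of 11 tags, and 6717 in Cxcr3-/-, with a median of 16. The Cxcr3-/- CMP/GMP library was the deeper of the pair, and depth and genotype cannot be told apart here.

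Annotated microRNA hairpins overlapped 2 CMP/GMP-only regions. Mir744, in a region assigned to Map2k4, had 13 tags in WT and 10 in Cxcr3-/-, and Mir1983, in a region assigned to Zfp184, had 10 and 13.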
